A study of Mus musculus with 10 samples.

Results

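The microRNAs described here are the guide strands mmu-miR-99a-5p, mmu-miR-99b-5p, mmu-miR-100-5p, mmu-miR-125a-5p and mmu-miR-125b-5p, which are encoded beside let-7 hairpins in the mouse genome. The prefix mmu, for mouse, is left out from here on. They were chosen by name and are 5 of the 1892 miRNAs on the array. All 5 had a probe, and all 5 were detected on each of 10 arrays.

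The one-colour arrays came from LC Sciences, and 5 carried T-C cell RNA and 5 control cell RNA, as the sample titles give them. T-C cell samples have the source Col-/- and control cell samples the source Control Col, and both are described as sle liver from males. A culture procedure for mouse liver cells is named for all samples. The labels give 0.5 mg of TN-CF for 24 h on dishes with 100000 T-C cells, and a control, without saying what TN-CF (TB-CF in the design text), T-C, Col or sle stand for. The source and the treatment change together between the groups, so they cannot be told apart. Whether the replicates were separate cultures or animals is not stated, so a p-value here reflects only how these samples scatter, and that scatter may be technical.

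MicroRNAs of the miR-99/100 family, of the miR-125 family and of the let-7 family are cut from hairpins that lie in the same clusters and are often transcribed together. Each hairpin is then processed on its own, and 1 of its strands, the guide, is loaded into the Argonaute complex, where the seed at its 5′ end pairs with target mRNAs. MiR-125 is the mammalian counterpart of lin-4, the Caenorhabditis elegans miRNA known for the timing of larval development, and its best known mammalian target is Lin28a, whose protein blocks the maturation of let-7. MiR-99/100 is best known for targeting Mtor, the kinase that couples nutrients to growth, and miR-125b also for its role in blood stem cells.

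The mature sequences carry the family relations that the comparisons below follow. They are shown 5′ to 3′ from RefSeq (GRCm38.p6) with the seed, bases 2 to 8, in capitals.
miR-99a-5p: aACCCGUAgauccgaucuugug
miR-100-5p: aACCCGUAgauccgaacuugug
miR-99b-5p: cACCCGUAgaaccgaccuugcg
miR-125a-5p: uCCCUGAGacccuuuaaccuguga
miR-125b-5p: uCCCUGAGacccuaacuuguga
let-7c-5p: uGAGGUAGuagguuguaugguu
let-7e-5p: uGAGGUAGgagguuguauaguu
let-7a-5p: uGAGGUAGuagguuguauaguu

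MiR-99a-5p, miR-99b-5p and miR-100-5p share 1 seed, miR-125a-5p and miR-125b-5p share another, and the let-7 guides share their own. With positions counted from 1 at the 5′ end, miR-99a-5p and miR-100-5p differ by the single substitution U16A. MiR-99b-5p differs from miR-99a-5p by A1C, U11A, U16C and U21C. MiR-125a-5p, of 24 bases, and miR-125b-5p, of 22 bases, share their first 13 bases and are 3 edits apart. Probes for sequences this alike may each bind some of the other RNA, and cross-binding was not tested.

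Each cluster holds 3 hairpins in the same order, a miR-99/100 hairpin, a let-7 hairpin and a miR-125 hairpin, all on the plus strand of GRCm38. On chromosome 16, Mir99a (chr16:77598936-77599000) is followed after 656 bases by Mirlet7c-1 and after a further 46522 bases by Mir125b-2 (chr16:77646273-77646343), all within introns of the non-coding host gene Mir99ahg. Mir125b-2 also overlaps an exon of C130023A14Rik. On chromosome 9, Mir100 (chr9:41531425-41531504) is followed after 5211 bases by Mirlet7a-2 and after a further 45114 bases by Mir125b-1 (chr9:41581926-41582002), within introns of the non-coding gene 3110039I08Rik. Here too exons overlap, of Gm28119 with Mir125b-1 and of Gm48742, on the opposite strand, with Mir100. On chromosome 17 the cluster is compact: Mir99b (chr17:17830188-17830257), Mirlet7e and Mir125a (chr17:17830812-17830879) fit in 692 bases, the first pair in introns of the protein-coding gene Spaca6 and Mir125a over one of its exons. MiR-125b-5p is made from both Mir125b-1 and Mir125b-2 with the same sequence, so its array value cannot be assigned to chromosome 9 or 16. Likewise, let-7a-5p is also made from Mirlet7a-1 on chromosome 13, and let-7c-5p from Mirlet7c-2 on chromosome 15.

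**Figure D1:**
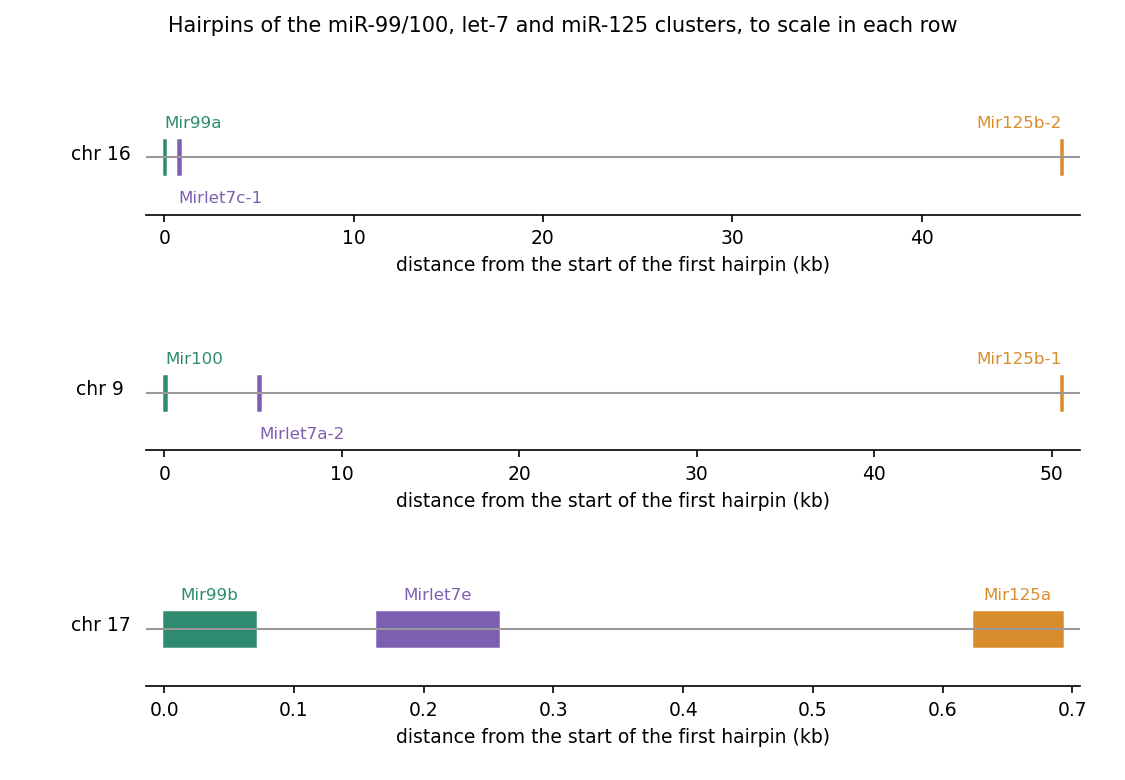
Hairpins of the 3 clusters drawn to scale, with the distance from the start of the first hairpin in kb on the x axis and 1 row per chromosome; boxes are hairpins of miR-99/100 (green), let-7 (purple) and miR-125 (orange). The chromosome 17 cluster spans 692 bases, against 47408 bases on chromosome 16 and 50578 bases on chromosome 9.

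The hairpins of Mir100 and Mir125a, as RefSeq gives them with both mature arms in capitals, show where the guide lies relative to the opposite strand.
Mir100: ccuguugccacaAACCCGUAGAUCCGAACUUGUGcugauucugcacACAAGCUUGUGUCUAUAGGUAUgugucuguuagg
Mir125a: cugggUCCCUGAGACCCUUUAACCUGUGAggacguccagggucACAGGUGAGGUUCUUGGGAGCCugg

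For each of the 5, the guide was the strand detected on all arrays. A miRNA counted as detected where its mean spot intensity exceeded the mean of the array's blank spots plus 3 SD. The guides stood well above that limit, miR-125b-5p at 13.2 to 85.9 times, miR-125a-5p at 3.81 to 38.2 times, miR-99b-5p at 2.22 to 12.6 times, miR-99a-5p at 1.88 to 8.47 times and miR-100-5p at 1.43 to 7.72 times. Of the other arms, miR-99a-3p, miR-100-3p, miR-125b-1-3p and miR-125b-2-3p were above the limit on no array, and miR-99b-3p and miR-125a-3p on 2 of 10 each. MiR-99b-3p was brightest on T-C cell array 1, at an intensity of 310 or 2.32 times the limit. Among the opposite strands of the let-7 hairpins in the clusters, let-7c-1-3p and let-7a-2-3p were above the limit on no array and let-7e-3p on 1. None of them was tested. Let-7a-1-3p, from Mirlet7a-1 on chromosome 13 and outside the clusters, was bright enough to test. Its log2 difference was -0.02 (SE 0.15, limma adjusted p = 0.973).

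Whole arrays differed in background and spread. Between 189 and 668 miRNAs were detected on T-C cell arrays and between 319 and 1314 on control cell arrays, with detection limits from 64.0 to 474. Arrays correlated with each other at 0.814 to 0.980. T-C cell array 3 had the highest limit, 474, and 189 detected miRNAs. T-C cell array 1 stood apart on the first principal component, at -15.8, against -5.10 to -1.34 for the other T-C cell arrays and 1.63 to 8.05 for control cell arrays. The numbers in the file headers place the control cell arrays between T-C cell array 1 and the other T-C cell arrays, but what they count is not stated, and no batch was drawn from them. Among markers of the cells that liver holds, miR-122-5p, the defining miRNA of hepatocytes, was above the limit on 1 of 10 arrays. The other 3 hepatocyte markers, which other epithelia also express, were detected on all 10 arrays, with miR-192-5p at 9933 to 13592 in T-C cell samples and 7608 to 18241 in control cell samples. MiR-145a-5p, a miRNA of smooth muscle and other mesenchymal cells, was bright on all, at 15029 to 27162 in T-C cell samples and 18326 to 22295 in control cell samples.

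Before any scaling between arrays, the miR-99/100 family was brighter on average in T-C cell samples. Values are spot intensities, a linear scanner brightness averaged over 2 spots, and the brightness of different probes does not compare their amounts. MiR-99a-5p had 988, 963, 1521, 1085 and 648 in T-C cell samples, against 690, 601, 603, 679 and 542 in control cell samples. Of the T-C cell samples, number 5 lay among the controls, and the other 4 were above all of them. The means were 1041 ± 315 in T-C cell samples and 623 ± 61.4 in control cell samples (SD, n = 5 each).

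MiR-100-5p had 952, 818, 919, 1095 and 641 in T-C cell samples, against 487, 456, 525, 696 and 494 in control cell samples. T-C cell sample 5 lay below control cell sample 4, which was the highest control, and the remaining samples of the groups did not overlap. The means were 885 ± 169 in T-C cell samples and 532 ± 95.1 in control cell samples (SD, n = 5 each). MiR-99b-5p had 1348, 1155, 1301, 1225 and 900 in T-C cell samples, against 861, 709, 830, 1047 and 808 in control cell samples, with the same pair of samples crossing.

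For miR-125 the groups overlapped more widely. MiR-125a-5p had 3490, 2571, 1805, 3653 and 2277 in T-C cell samples, against 1579, 1650, 1822, 2740 and 2441 in control cell samples. T-C cell samples 1 and 4 were the highest, and T-C cell sample 3 lay between control cell samples 2 and 3. MiR-125b-5p, the brightest of the 5, had 6640, 6563, 8232, 8216 and 4844 in T-C cell samples, against 3274, 4205, 4483, 7193 and 5497 in control cell samples. Control cell sample 4 exceeded 3 of the T-C cell samples, and T-C cell sample 5 was below control cell samples 4 and 5.

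On these unscaled values, an exact two-sided permutation test over the 252 splits of 5 against 5 samples gave p = 0.0238 for miR-99a-5p, 0.0159 for miR-99b-5p and 0.0159 for miR-100-5p. The log2(intensity + 50) differences, T-C cell minus control cell, were 0.66, 0.45 and 0.68. For miR-125a-5p and miR-125b-5p the differences were 0.41 and 0.51, and the exact permutation p-values 0.159 and 0.0794. Adjusted over the 476 miRNAs tested, the 5 permutation p-values became 0.258, 0.216, 0.216, 0.572 and 0.398, so none passed 0.05. The background on the same scale was 6.51% of tested miRNAs with an unadjusted exact p under 0.05 and higher in T-C cell samples, and 15.1% in either direction. The median tested miRNA was 0.14 higher in T-C cell samples before scaling, and the 5 differences lie above that shift.

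Scaling by cyclic loess, which bends each array towards the others over the brightness range, lowered the shift of the median tested miRNA to 0.02. It changed the order of the T-C cell samples. T-C cell sample 1 was the brightest T-C cell array for miR-99b-5p before scaling and the lowest after it.

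On the normalized log2(intensity + 50) scale, miR-99a-5p was at 9.44, 10.25, 10.94, 9.84 and 9.54 in T-C cell samples, against 9.59, 9.44, 9.30, 9.57 and 9.33 in control cell samples. MiR-99b-5p was at 9.89, 10.46, 10.72, 9.99 and 9.99 in T-C cell samples, against 9.84, 9.64, 9.74, 10.17 and 9.82 in control cell samples. MiR-100-5p was at 9.39, 10.05, 10.25, 9.87 and 9.52 in T-C cell samples, against 9.16, 9.08, 9.11, 9.59 and 9.23 in control cell samples. In all 3, T-C cell samples 2 and 3 were the highest of the 10 and T-C cell sample 1 lay within the controls' range. MiR-125a-5p was at 11.32, 11.44, 11.08, 11.44 and 11.32 in T-C cell samples, against 10.53, 10.78, 10.83, 11.49 and 11.23 in control cell samples. MiR-125b-5p was at 12.46, 12.62, 13.16, 12.57 and 12.45 in T-C cell samples, against 11.43, 12.14, 12.11, 12.82 and 12.28 in control cell samples. Here the control cell samples were the more spread, with control cell sample 1 lowest for both and control cell sample 4 above 5 of the T-C cell samples for miR-125a-5p and above 4 for miR-125b-5p.

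**Figure D2:**
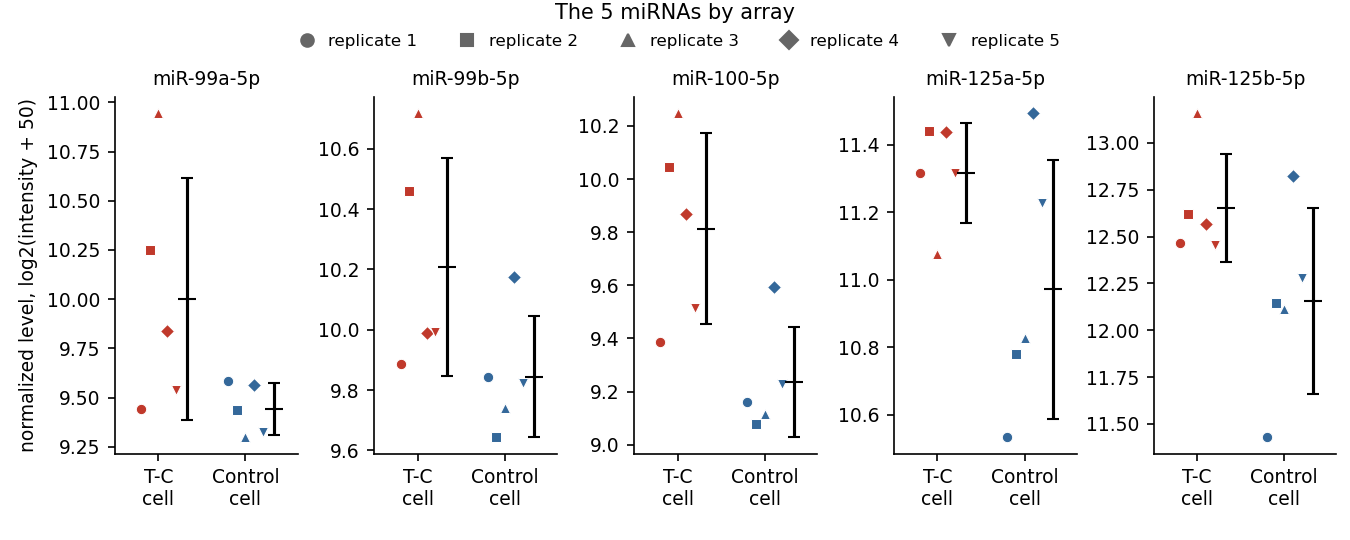
Normalized level, log2(intensity + 50), of each of the 5 miRNAs on the y axis, with the T-C cell samples left and the control cell samples right; symbols are replicates 1 to 5 and bars the mean ± SD (n = 5 each). The groups overlap in every panel, and each panel has its own y range.

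Each of the 5 averaged higher in T-C cell samples, and none passed the test over the whole array. MiR-100-5p had the largest difference, a log2 difference of 0.58 (SE 0.20, 95% interval 0.14 to 1.01) or 1.49-fold, with a limma p of 0.0132 and an adjusted p of 0.110. MiR-99a-5p followed at 0.56 (SE 0.26, 95% interval -0.01 to 1.13), or 1.47-fold, with an adjusted p of 0.290 by limma. MiR-99b-5p differed by 0.36 (SE 0.19, 95% interval -0.06 to 0.79), or 1.29-fold, with a limma adjusted p of 0.370. MiR-125b-5p differed by 0.50 (SE 0.24, 95% interval -0.02 to 1.01), or 1.41-fold, and miR-125a-5p by 0.35 (SE 0.19, 95% interval -0.06 to 0.75), or 1.27-fold. Their limma adjusted p-values were 0.302 and 0.381.

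Thus 0 of 5 passed an adjusted p of 0.05, where 37 of 476 tested miRNAs, or 7.77%, passed in either direction and 7, or 1.47%, were higher in T-C cell samples. At an unadjusted limma p under 0.05 the count was 1 of 5, miR-100-5p, against a background of 18.3% in either direction and 6.30% higher. All 5 differences were positive, against 52.9% of all tested miRNAs. The normalized levels of all 5 overlapped between the groups, and 3.78% of tested miRNAs did not overlap. The median of the 5 was 0.50, and the median of all tested was 0.02. Of the 476, 46, or 9.66%, had a difference at least as large as the smallest of the 5, and the 5 themselves are among these 46.

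Single arrays carried much of these sizes. Without T-C cell sample 3, whose array had the highest detection limit, the log2 difference was 0.31 for miR-99a-5p and 0.23 for miR-99b-5p. Without control cell sample 1, it was 0.30 for miR-125b-5p and 0.23 for miR-125a-5p. Without T-C cell sample 1, which stood apart on the first principal component, the 5 differences were 0.69, 0.45, 0.68, 0.37 and 0.58 in the order of miR-99a-5p, miR-99b-5p, miR-100-5p, miR-125a-5p and miR-125b-5p. MiR-100-5p passed the test in 1 alternative, where limma weighted arrays by their quality (log2 difference 0.65, adjusted p = 0.0344).

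Of 7 haematopoietic miRNAs on a marker list, 5 had probes, all 5 were tested, and 1 passed. This was miR-150-5p, a lymphocyte miRNA, which rose by 0.86 (SE 0.23, limma adjusted p = 0.0433). Of all tested miRNAs, 1.47% passed as higher in T-C cell samples. The summed normalized level of the list ran from 3816 to 4879 in T-C cell samples and from 2524 to 3407 in control cell samples, without overlap. Before scaling the sums overlapped, at 2962 to 6147 in T-C cell samples and 2200 to 3022 in control cell samples. The part of this list in the differences of miR-99/100 and miR-125 was not tested. In bulk samples more cells of a type and more RNA per cell cannot be told apart. None of the tested hepatocyte (3), endothelial (1), mesenchymal (5) and epithelial (5) markers passed, and the summed levels of these lists overlapped between the groups.

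The let-7 guides encoded between these hairpins differed by 0.98 (let-7e-5p, SE 0.16, limma adjusted p = 0.0142), 0.62 (let-7a-5p, SE 0.15, adjusted p = 0.0419) and 0.49 (let-7c-5p, SE 0.14, adjusted p = 0.0571). Of 11 tested let-7 guides, 5 were higher at a limma adjusted p under 0.05, against 1.47% of all tested miRNAs. All 11 differences were positive, against 52.9% of all tested. Their median was 0.49, beside 0.50 for the 5 miRNAs of the miR-99/100 and miR-125 families. Let-7a-5p is 1 base apart from let-7c-5p and from let-7e-5p, and cross-binding of their probes was not tested.

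**Figure D3:**
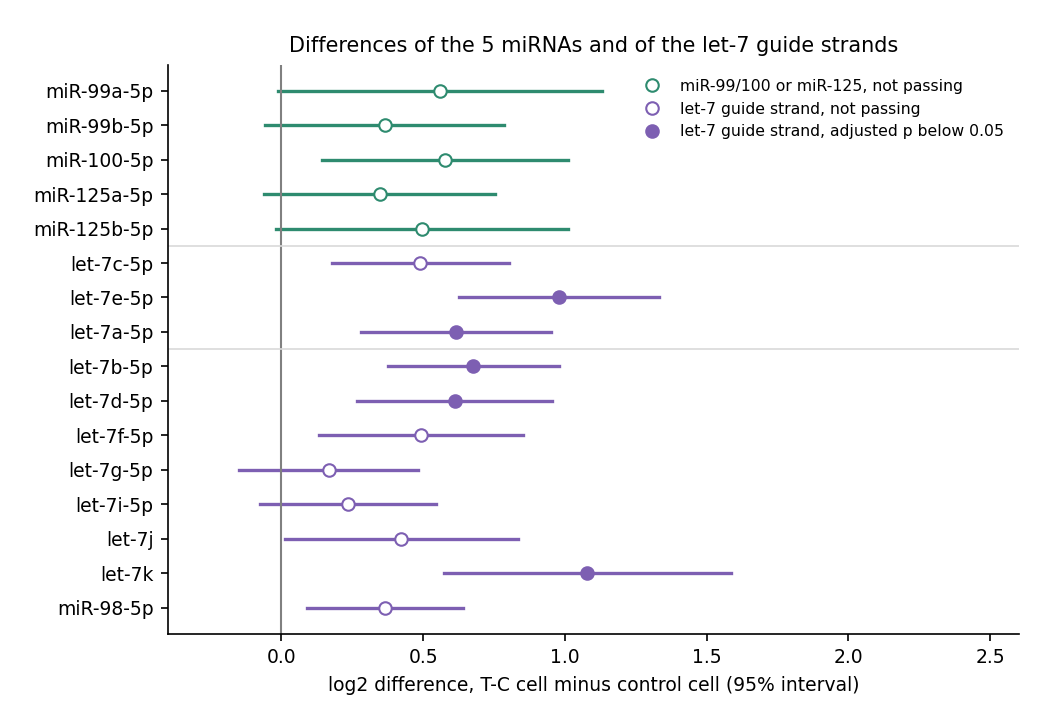
Log2 difference, T-C cell minus control cell, with its 95% interval from limma on the x axis, for the 5 miRNAs of the miR-99/100 and miR-125 families (green), the let-7 guides of the same clusters and the other let-7 guides (purple); filled points passed an adjusted p of 0.05. The 5 green points lie between 0.35 and 0.58 and none is filled.

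Whether the guides encoded in a cluster changed alike was compared with log2 ratios within each array, taken before any scaling between arrays. The added 50 and the array's background, which was not subtracted, still enter these ratios. A ratio shows unequal change and not which of the pair changed. In the chromosome 17 cluster both ratios to let-7e-5p were lower in T-C cell samples. The log2 ratio of miR-99b-5p to let-7e-5p was -0.27, 0.19, 0.21, -0.45 and -0.16 in T-C cell samples, against 0.89, 0.33, 0.36, 0.55 and 0.50 in control cell samples. The log2 ratio of miR-125a-5p to let-7e-5p was 1.04, 1.29, 0.63, 1.07 and 1.11 in T-C cell samples, against 1.70, 1.45, 1.44, 1.87 and 2.01 in control cell samples. Neither ratio overlapped between the groups.

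The mean differences in log2 ratio were -0.62 for miR-99b-5p (95% interval -1.02 to -0.22) and -0.67 for miR-125a-5p (95% interval -1.07 to -0.33). For both, the exact two-sided permutation p was 0.00794, the smallest that 5 against 5 samples allow, and 0.0238 adjusted over the 6 ratios to let-7. The same was found for most of the array: 58.1% of the other tested miRNAs had a lower, non-overlapping ratio to let-7e-5p in T-C cell samples, and 87.6% had an exact permutation p under 0.05. The low ratios are therefore shared by most miRNAs compared with let-7e-5p.

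In the other clusters the ratios overlapped. Let-7c-5p and let-7a-5p are also made outside these clusters, and miR-125b-5p is made in both. These ratios therefore mix loci and cannot be assigned to a single cluster. The log2 ratio of miR-99a-5p to let-7c-5p averaged -2.62 ± 0.47 in T-C cell samples and -2.77 ± 0.24 in control cell samples (SD, n = 5 each), a difference of 0.15 with a 95% interval from -0.38 to 0.70. For miR-125b-5p to let-7c-5p the difference was 0.01 (95% interval -0.58 to 0.53). MiR-100-5p to let-7a-5p differed by 0.04 (95% interval -0.30 to 0.39) and miR-125b-5p to let-7a-5p by -0.12 (95% interval -0.64 to 0.41). The exact permutation p-values of these 4 ran from 0.571 to 0.984 before adjustment. The intervals leave room for changes in ratio of up to 0.70 on the log2 scale, so equal change is not shown. Among the other tested miRNAs, the ratio to let-7c-5p was lower without overlap in T-C cell samples for 12.4%, and 34.1% had an exact permutation p under 0.05. For the ratio to let-7a-5p these shares were 14.9% and 41.3%.

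Among the family members themselves, 1 of 4 ratios separated the groups. The log2 ratio of miR-100-5p to miR-99b-5p was -0.49, -0.47, -0.48, -0.16 and -0.46 in T-C cell samples, against -0.76, -0.59, -0.61, -0.56 and -0.66 in control cell samples. It was higher in T-C cell samples by 0.22 (95% interval 0.10 to 0.40), with an exact two-sided permutation p of 0.00794 and 0.0317 adjusted over the 4 ratios. Of the 475 other tested miRNAs, 2, or 0.421%, had a higher, non-overlapping ratio to miR-99b-5p in T-C cell samples, miR-100-5p among them, 4.84% had a lower one, and 21.7% had an exact permutation p under 0.05. The adjusted permutation p was 0.0635 without T-C cell sample 4, where the difference was 0.16. With the first or the second spot alone, the adjusted exact p was 0.0952 or 0.190.

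The other 3 ratios overlapped between the groups. MiR-100-5p to miR-99a-5p, the pair 1 base apart, differed by 0.02 (95% interval -0.33 to 0.37, exact permutation p = 0.897). MiR-99b-5p to miR-99a-5p differed by -0.20 (95% interval -0.54 to 0.11, exact permutation p = 0.183). MiR-125a-5p to miR-125b-5p differed by -0.10 (95% interval -0.68 to 0.32, exact permutation p = 0.825), and on T-C cell array 3 this ratio was -2.17, against -1.31 to -0.93 on the other T-C cell arrays.

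**Figure D4:**
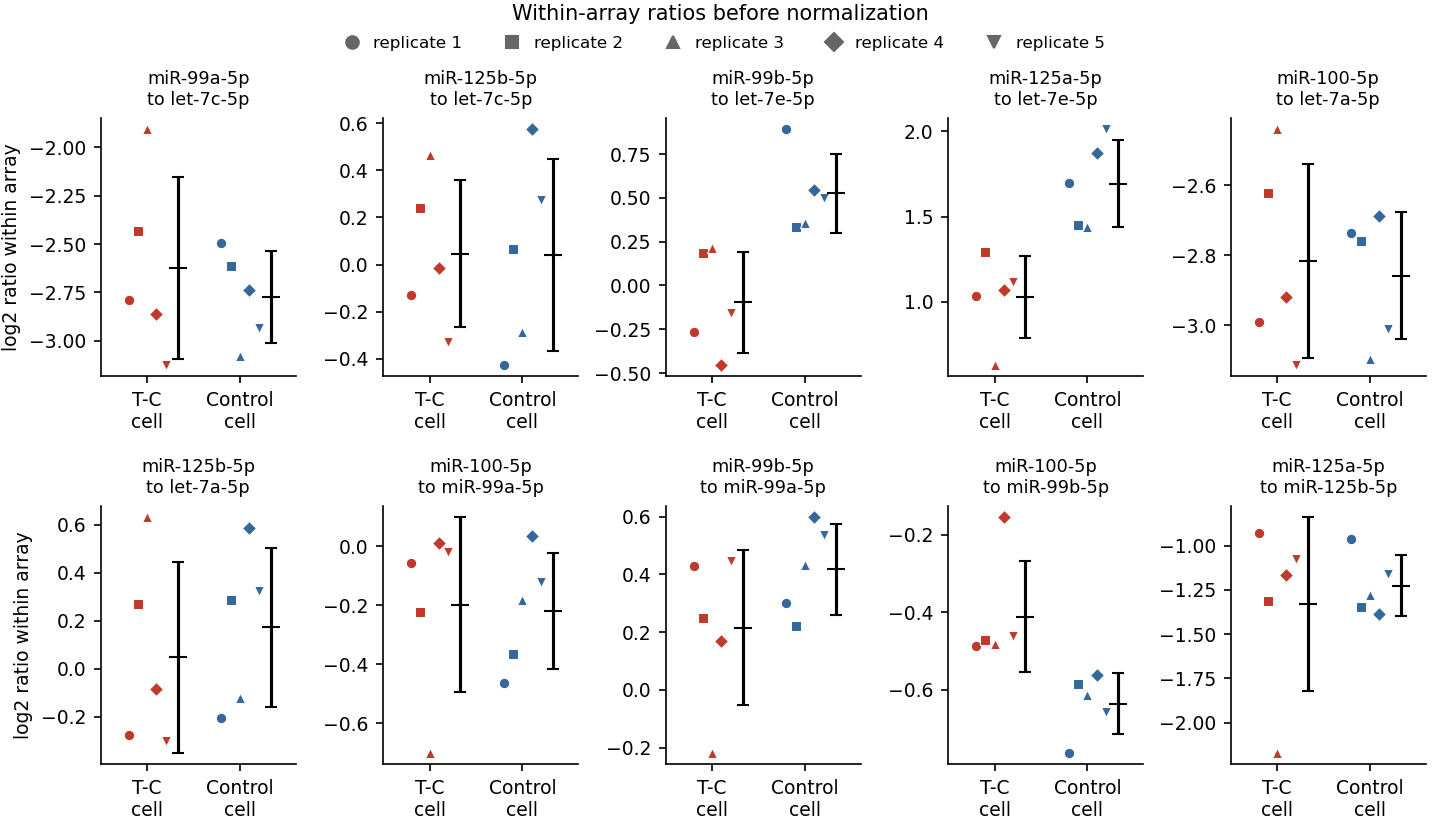
Within-array log2 ratios on the y axis, with T-C cell samples left of control cell samples in each panel; symbols are replicates 1 to 5 and bars the mean ± SD (n = 5 each). The ratios of miR-99b-5p and miR-125a-5p to let-7e-5p and of miR-100-5p to miR-99b-5p do not overlap between the groups, and the others do.

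The order of brightness was nearly the same on every array. MiR-125b-5p was brighter than miR-125a-5p on 10 of 10 arrays, by a median of 2.36-fold, and miR-125a-5p brighter than miR-99b-5p on 10 of 10, by 2.43-fold. MiR-99b-5p exceeded miR-99a-5p on 9 of 10 arrays, by a median of 1.31-fold, and miR-99a-5p exceeded miR-100-5p on 8 of 10, by 1.12-fold. Probes differ in how brightly they stain, so this is an order of signals and not of amounts. Among the 1892 miRNAs of an array, miR-125b-5p ranked between 12 and 49, miR-125a-5p between 53 and 106, miR-99b-5p between 81 and 164, miR-99a-5p between 70 and 186 and miR-100-5p between 106 and 232.

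The arrays on which each miRNA was relatively bright were compared by the SD, over 10 arrays, of the normalized log2 ratio between 2 miRNAs, where a small SD means a like pattern. The miR-99/100 members were close to each other. MiR-99b-5p was the most like of 475 miRNAs to miR-100-5p (SD 0.157), and miR-100-5p the most like to miR-99a-5p (SD 0.233). For miR-125b-5p, miR-100-5p took place 2, and its cluster partners let-7c-5p and let-7a-5p places 10 and 13 (SD 0.340 and 0.345). Let-7g-5p (SD 0.306) and let-7b-5p (SD 0.314), which these clusters do not encode, were more like it than both partners. Let-7c-5p took place 72 for miR-99a-5p, and let-7a-5p place 44 for miR-100-5p. For miR-125a-5p, let-7e-5p of the same 692 bases took place 183 of 475, and for miR-99b-5p place 161. All these values share the 10 arrays and the same normalization.

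Outside the 5, the most like miRNAs, of 471 compared, were miR-151-5p for miR-99a-5p (SD 0.299), miR-185-5p for miR-99b-5p (0.152), miR-30d-5p for miR-100-5p (0.205), and miR-30a-5p for both miR-125a-5p (0.200) and miR-125b-5p (0.279). The median SD over all compared was 0.599, 0.452, 0.507, 0.441 and 0.556 in the same order. None of these 4 passed the test between the groups.

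Other miRNAs on the array carry the miR-125 seed, and none besides the members carries the miR-99/100 seed. They are shown from RefSeq (GRCm38.p6) with the seed in capitals because a probe or target that reads the seed alone would not tell them from miR-125.
miR-351-5p: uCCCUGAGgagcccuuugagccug
miR-6367: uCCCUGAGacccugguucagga
miR-6394: uCCCUGAGuggggccaggucu
MiR-6367 shares its first 13 bases with both miR-125 members and was above the detection limit on no array. MiR-6394 was above it on 3 arrays and was not tested. MiR-351-5p was detected on 5 arrays, and its log2 difference was 0.06 (SE 0.08, limma adjusted p = 0.766).

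The 2 spots of each probe show the error within an array, and not the error between arrays. For the miR-99/100 members the first spot was 0.80 to 1.24 times as bright as the second. For miR-125a-5p the first spot, in row 7 and column 17 of the array, was brighter than the second, in row 114 and column 1, on 10 of 10 arrays, by 1.27 to 1.73-fold. For miR-125b-5p, with spots in row 10 and column 17 and in row 117 and column 1, it was brighter on 9 of 10, by a median of 1.37-fold. The exception was control cell array 1, with 2088 on the first spot and 4460 on the second. On that array 7 tested miRNAs, or 1.47%, had spots more than 2-fold apart. T-C cell array 3 had 14, or 2.94%, and control cell array 5 had 8, or 1.68%, while the remaining arrays had 0 or 1.

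The size of the miR-125b-5p difference depended on which spots were used. The log2 difference was 0.76 on the first spots alone and 0.26 on the second spots alone, beside 0.50 on both, with limma adjusted p-values of 0.285 and 0.571. For miR-125a-5p the first spots gave 0.37 and the second spots 0.33.

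**Figure D5:**
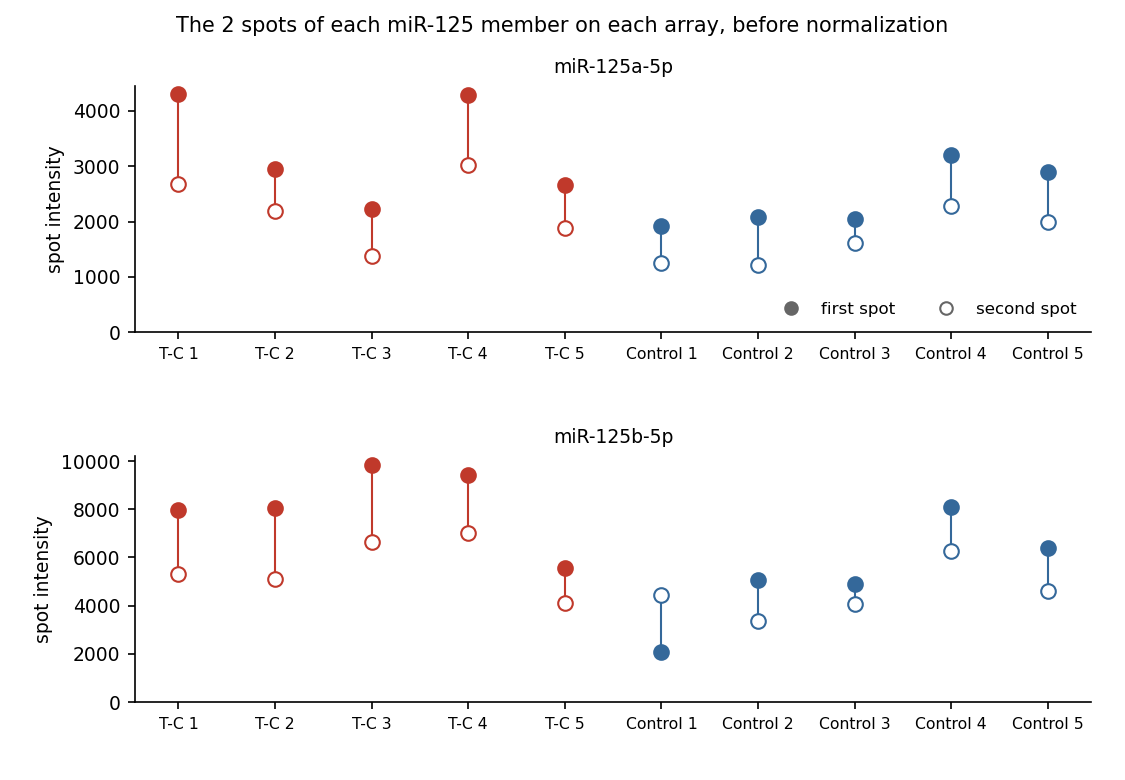
Intensity of the first (filled) and second (open) spot of miR-125a-5p (top) and miR-125b-5p (bottom) on each array before normalization, with T-C cell arrays left (red) and control cell arrays right (blue). The first spot is the brighter on all arrays for miR-125a-5p and on all but control cell array 1 for miR-125b-5p.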

How the data were processed

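Total RNA (1 µg) was polyadenylated, tagged and stained with Cy3, per the labels' protocols. Per the file headers, the authors deposited the median intensity of each spot, unscaled between arrays and on a linear scale. The series is filed as sequencing, but all 10 files hold brightness. The scanner, the image software and the build behind the probes are not stated in any label or header.

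The log2 values, log2(intensity + 50), were computed from the deposited intensities and averaged over both spots, and cyclic loess scaled the arrays. miRNAs detected on at least 5 of 10 arrays (476 of 1892) were compared with limma 3.58.1 in R 4.3.3 (trend, two-sided, Benjamini-Hochberg over all tested, threshold 0.05). Unscaled levels and within-array ratios were compared by exact permutation, and intervals of ratios collect the shifts that this test does not reject at 5%. Unscaled p-values were adjusted over all tested miRNAs and not over the 5 as designed. The number of arrays limits the precision. The miRNAs named were the 5, their cluster partners, the opposite arms and those sharing a seed. Also named were the marker lists and the 3 most like each of the 5. Of these 3, the most like is given here, and for miR-125b-5p all 3. The miRNAs and lists were chosen with earlier results of these data known. Sequences were matched to RefSeq (Python 3.11.15), and all 11 matched. Hosts come from GENCODE on GRCm38. The scripts were tested on simulated data.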

Additional observations from a re-analysis of the deposited data

Results flagged for a closer look

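In 4 of 56 groups of 5 samples, 1 sample lay apart from the other 4 by more than Dixon's 95% critical value, and chance flags about 1 in 20 groups. The normalized level of miR-125b-5p was 13.16 on T-C cell array 3, against 12.45 to 12.62 on the other T-C cell arrays. The intensity of miR-100-5p was 696 on control cell array 4, against 456 to 525 on the other control cell arrays. The log2 ratio of miR-100-5p to miR-99b-5p was -0.16 on T-C cell array 4, against -0.49 to -0.46 on the others. The first spot of miR-99b-5p was 1.08 times as bright as the second on control cell array 4, against 0.922 to 0.966 times on the other control cell arrays.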

How the results depend on the processing

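Over 24 alternatives each, the 5 differences stayed positive: 0.31 to 0.84 for miR-99a-5p, 0.23 to 0.56 for miR-99b-5p, 0.46 to 0.92 for miR-100-5p, 0.23 to 0.53 for miR-125a-5p and 0.26 to 0.76 for miR-125b-5p. With single arrays left out they were 0.31 to 0.69, 0.23 to 0.45, 0.46 to 0.68, 0.23 to 0.47 and 0.30 to 0.66. MiR-100-5p alone passed once, at 0.65 with array weights (limma adjusted p = 0.0344; 0.0344 to 0.999 over its alternatives). Over all tested miRNAs, 37 passed (7 higher, 30 lower), against 14 higher and 33 lower with quantile normalization, 14 (1 higher, 13 lower) with median centring, 3 higher and 28 lower without normalization, 3 (2 higher, 1 lower) after blank subtraction, 18 (9 lower) among miRNAs detected on all 10 arrays, and 1 (0 higher, 1 lower) with all 1892 tested. Leaving out single arrays gave 1 to 44 (0 to 8 higher, 1 to 36 lower), with 1 left without control cell replicate 2 or 3 and 2 without T-C cell replicate 4. Same-numbered samples did not deviate together (correlations of -0.20 to 0.26), so numbers were not taken to pair samples. With the replicate number as a block, 22 passed (4 higher, 18 lower), and the log2 ratios to let-7e-5p kept their sizes of -0.62 and -0.67 (adjusted exact p = 0.188) and that of miR-100-5p to miR-99b-5p its 0.22 (0.25), where 5 pairs allow no exact p under 0.0625. With arrays left out, the ratio difference ran from -0.70 to -0.53 for miR-99b-5p to let-7e-5p, past the threshold except without control cell replicate 1, 4 or 5 (adjusted exact p = 0.0714), from -0.73 to -0.57 for miR-125a-5p to let-7e-5p, past it except without control cell replicate 5, and from 0.16 to 0.24 for miR-100-5p to miR-99b-5p, which was 0.23 on first and 0.22 on second spots (adjusted exact p = 0.0952 and 0.190), alternatives chosen after seeing the data. Of the 7 ratios that never passed, miR-99b-5p to miR-99a-5p kept its sign (-0.29 to -0.095 over all alternatives) and the other 6 changed it. With arrays left out, miR-99a-5p to let-7c-5p ran from -0.030 to 0.27, miR-125b-5p to let-7c-5p from -0.11 to 0.14 (-0.24 on second spots), miR-100-5p to let-7a-5p from -0.054 to 0.11 (-0.057 with 200 added, -0.039 on normalized values), miR-125b-5p to let-7a-5p from -0.27 to -0.02 (0.095 on first spots), miR-100-5p to miR-99a-5p from -0.040 to 0.15 and miR-125a-5p to miR-125b-5p from -0.20 to 0.11 (0.10 on second spots). Over all alternatives, the highest were 0.33 for miR-99a-5p to let-7c-5p and 0.25 for miR-125b-5p to let-7c-5p. The causes were not tested.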

Other observations

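All 5 miRNAs of the miR-99/100 and miR-125 families hold the letters ACC in their mature sequence, a pattern noticed in these data and given with no test. Of the 119 other tested miRNAs with ACC, 36 had a positive difference and 28 were lower in T-C cell samples at a limma adjusted p under 0.05, with a median log2 difference of -0.17. Over all 476 tested miRNAs 30 were lower, and of the 352 without ACC 2 were. The 5 had a median of 0.50, and the tested miRNAs without ACC a median of 0.05. Of the 44 other miRNAs with ACC and at least the mean brightness of the dimmest of the 5, 12 had a positive difference and the median was -0.84. The others with ACC and a difference at least as large as the smallest of the 5 numbered 8, among them miR-133b-5p (3.14, limma adjusted p = 0.0419), miR-150-5p (0.86, adjusted p = 0.0433), miR-10b-5p (0.70, adjusted p = 0.185) and miR-10a-5p (0.43, adjusted p = 0.460), 4 chosen after their values were seen.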
